A study of Mus musculus with 8 samples.

Results

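The interferon-inducible GTPases are proteins that bind guanosine triphosphate, are made at low levels in resting cells, and accumulate when a cell senses interferon (IFN). Here they are 10 genes of the 54532 in the deposited expression table, matched by gene symbol and chosen with earlier results of these data known. There are 7 guanylate-binding proteins (GBPs), *Gbp2*, *Gbp3*, *Gbp4*, *Gbp5*, *Gbp6*, *Gbp7* and *Gbp9*, and 3 immunity-related GTPases (IRGs), *Igtp*, *Irgm1* and *Irgm2*. The cells were MICFs, cardiac fibroblasts isolated from infarcted hearts of adult C57BL/6 mice, which carried doxycycline-inducible lentiviruses for eGFP and for the cardiac reprogramming factors MGT (*Mef2c*, *Gata4* and *Tbx5*), *Myocd* and *Sall4* (genotype MGTMyoS overexpression in every library). For the *in vivo* samples the infected cells were injected into the left ventricle of C57BL/6 mice straight after coronary ligation. For the *in vitro* samples a share of the same infected cells stayed in culture. eGFP+ cells were sorted on Days 7 and 14, called 1 week and 2 weeks, with 2 libraries in each of the 4 groups. The mice drank doxycycline and received daily tacrolimus, methylprednisolone and mycophenolate mofetil, which suppress the immune response. The reprogramming medium that the study describes for culture holds doxycycline, the TGF-β receptor inhibitor SB431542 and baricitinib, which inhibits the Janus kinases that relay interferon signals. The effects of the heart, of the immunosuppressants and of that medium cannot be told apart in this design, no group received interferon, and no group held cells without the reprogramming factors.

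GBPs are large members of the dynamin superfamily that coat bacteria and the vacuoles in which pathogens live, and help to open them and to bring inflammasomes to their contents. Type II interferon (IFN-γ) is their classic inducer and type I interferon (IFN-α/β) induces many of them too. IRGs are smaller. *Igtp* (also called Irgm3), *Irgm1* and *Irgm2* belong to the regulatory IRGs, which sit on the cell's own membranes and keep the effector IRGs in check there. In fibroblasts and macrophages both families are textbook readouts of interferon signalling. The comparison made here asks how the levels of these genes in the sorted cells differed between the heart and the dish, and between the weeks.

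Transcription of these genes is classically driven through 2 kinds of DNA element. The interferon-stimulated response element (ISRE) is bound by a complex that holds *Stat2* and *Irf9* and by other interferon regulatory factors, and the gamma-activated site (GAS) is the classic element of the early response to IFN-γ. Since the members rose together, the stretch of promoter that holds the ISRE core is shown for each member with an entry in the promoter table used here, which came from RefSeq on GRCm38.p6 and covers 250 bases before to 50 bases after a gene's start. Of the 10 members, 7 matched by symbol, all but *Gbp4*, *Gbp6* and *Gbp9*. Each line gives up to 25 bases on both sides of the match in the direction of transcription, with the ISRE core (GAAANNGAAA on either strand, so TTTCNNTTTC on the other) in capitals, and fewer bases for *Gbp2* and *Irgm1*, whose core lies in an exon of the GENCODE vM21 models.
Gbp2: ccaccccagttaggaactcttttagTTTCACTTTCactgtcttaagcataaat
Gbp3: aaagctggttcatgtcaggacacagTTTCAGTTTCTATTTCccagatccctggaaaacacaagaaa
Gbp5: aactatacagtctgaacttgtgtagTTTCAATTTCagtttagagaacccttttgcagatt
Gbp7: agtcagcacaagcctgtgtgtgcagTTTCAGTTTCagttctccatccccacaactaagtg
Igtp: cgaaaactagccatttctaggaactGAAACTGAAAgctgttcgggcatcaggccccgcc
Irgm1: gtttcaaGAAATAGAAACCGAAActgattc
Irgm2: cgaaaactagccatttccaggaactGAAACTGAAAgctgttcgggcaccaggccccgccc

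These stretches lie at chr3:142620579-142620631 (*Gbp2*), chr3:142559974-142560039 (*Gbp3*), chr3:142496744-142496803 (*Gbp5*) and chr3:142530258-142530317 (*Gbp7*) on the plus strand. On chromosome 11, the plus strand holds chr11:58199497-58199555 (*Igtp*) and chr11:58214888-58214947 (*Irgm2*), and the minus strand chr11:48871428-48871457 (*Irgm1*). The ISRE core was found in 7 of the 7 members with a window and in 3.44% of all 32851 windows of the same length, and in a window of 3.99% of the 27025 genes in the table. In *Gbp3* and *Irgm1* a pair of overlapping cores ran into each other. The first base of the core lay 30 to 64 bases before the RefSeq start in 6 members, and 165 bases before it in *Gbp5*. The 4 GBPs carried the core on the minus strand relative to transcription (TTTCNNTTTC) and the 3 IRGs on the plus strand. The GAS core (TTCNNNGAA, which reads the same on both strands) was found in 4 of the 7, namely *Gbp5*, *Gbp7*, *Igtp* and *Irgm2*, and in 9.55% of all genes. The stretches of *Igtp* and *Irgm2* shared 57 of 59 bases, and their windows set on the motif shared 184 of 270. A further RefSeq window of *Gbp3* held neither core. The ISRE core was also found in 8 of 14 genes with a window on a list of genes mainly induced by type I IFN, in 5 of 9 other IRG family genes, in *Gbp2b* (the 1 other GBP with a window), in 1 of 7 type I IFN signalling genes, in 2 of 11 IFN-γ signalling genes, in 0 of 8 genes mainly induced by IFN-γ and in 0 of 10 other dynamin family GTPases. The GAS core was found in 3 of 14, 4 of 9, 0 of 1, 2 of 7, 5 of 11, 1 of 8 and 0 of 10 genes of these lists in the same order. These matches describe the letters only. The RefSeq start lay inside the gene model of the deposited table in 5 of the 7 members, by 18 bases in *Gbp3*, 61 in *Gbp2*, 263 in *Irgm1*, 2956 in *Gbp5* and 15359 in *Irgm2*, and the ISRE core itself lay inside the model in 4, all of these but *Gbp3*.

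In all 8 libraries together the depth was even. Between 12304242 and 14546904 fragments per library fell on genes, worked out from the FPKM (fragments scaled to gene length and library size by the authors) and gene lengths, which gave whole numbers for 100% of the values. The library size behind the FPKM was 0.863 to 0.915 times this total in the *in vivo* samples and 1.09 to 1.15 times in the *in vitro* samples, so the deposited FPKM hold a scaling between libraries. Undoing it moved the median log2 fold change of all genes to -0.34 (1 week) and -0.33 (2 weeks), and moved the split of genes called higher and lower from 1224 and 796 to 906 and 1562 at 1 week, and from 1417 and 1265 to 1029 and 2097 at 2 weeks. Libraries of a group differed by more than counting error, their chi-square averaging 4.50 to 9.93 for each gene. The cells held fibroblast transcripts such as *Col1a1* (FPKM of 363 to 4709 over the libraries), and macrophage transcripts such as *Lyz2* (975 to 4014) were abundant beside them in every library. A gene was called higher or lower where limma on log2(FPKM + 0.1), fitted over 15708 genes, gave an adjusted p (Benjamini-Hochberg) below 0.01 together with a log2 fold change past 1 in size. Fold changes on this scale understate the change of genes with low FPKM.

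The 10 genes are protein-coding in the table, with the Ensembl identifiers ENSMUSG00000028270 (*Gbp2*), ENSMUSG00000028268 (*Gbp3*), ENSMUSG00000079363 (*Gbp4*), ENSMUSG00000105504 (*Gbp5*), ENSMUSG00000104713 (*Gbp6*), ENSMUSG00000040253 (*Gbp7*), ENSMUSG00000029298 (*Gbp9*), ENSMUSG00000078853 (*Igtp*), ENSMUSG00000046879 (*Irgm1*) and ENSMUSG00000069874 (*Irgm2*). All 10 members were higher in every *in vivo* library than in every *in vitro* library, as were 20.5% of all genes tested. At 1 week 9 of the 10 were called higher *in vivo* (background 7.79% of tested genes higher) and 0 lower (5.07%). At 2 weeks 6 were called higher (9.02%) and 0 lower (8.05%), and over both weeks together 10 were called higher (9.56%) and 0 lower (7.30%). The median log2 fold change of the members was 1.81 at 1 week, 1.52 at 2 weeks and 1.71 over both, where the median of all tested genes was -0.0058, -0.0034 and -0.0029. All 10 reached an FPKM of 0.5 in 2 or more libraries, the filter for testing, but *Gbp4* and *Gbp6* passed it through the *in vivo* libraries alone, so they had to differ. Of the other 8, 7 were called at 1 week, 5 at 2 weeks and 8 over both. With the scaling between libraries undone, 7 members were called at 1 week, 4 at 2 weeks and 7 over both, with medians of 1.5, 1.22 and 1.40 above an all-gene median of -0.34, -0.33 and -0.33. In bulk RNA of this kind, fewer cells that express a gene and less of its RNA per cell cannot be told apart.

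**Figure D1:**
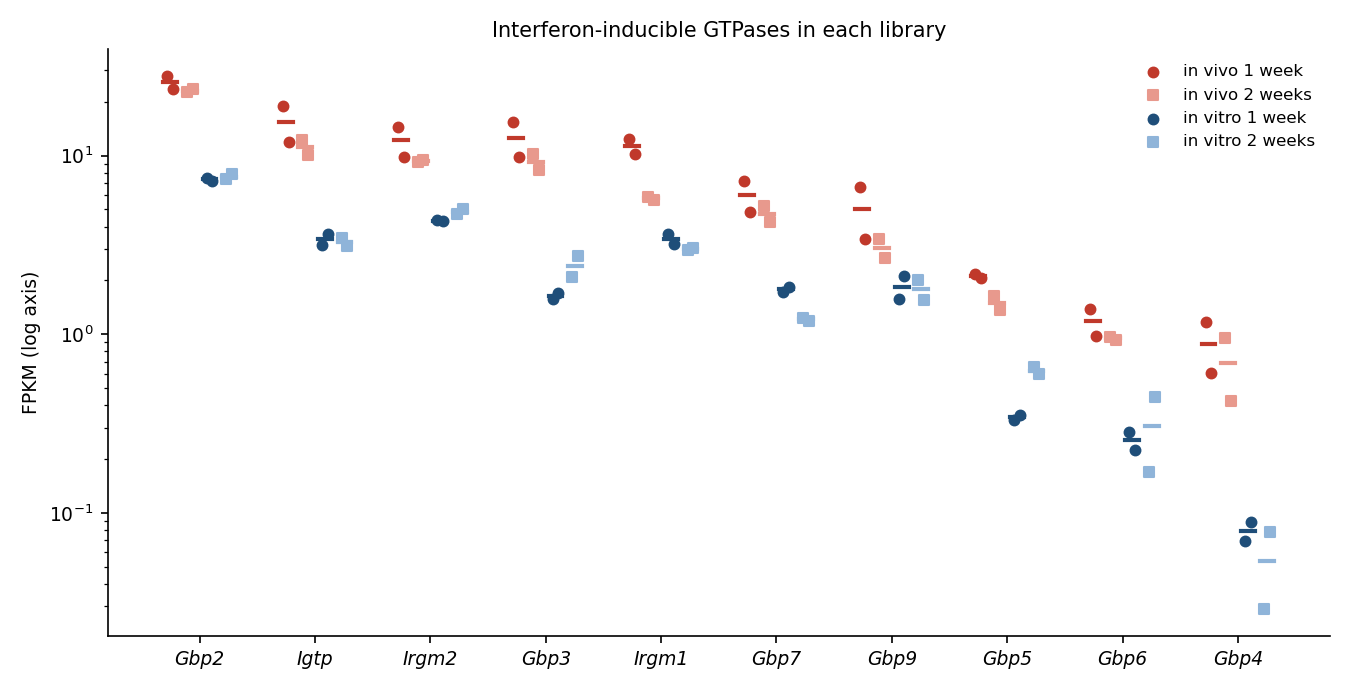
FPKM of each of the 10 GTPases in the 8 libraries, on a log vertical axis, where points are libraries coloured by group and short lines are group means. For every gene the 4 *in vivo* points lie above the 4 *in vitro* points, and *Gbp4* *in vitro* rests on 3 to 10 fragments per library.

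The 4 GBPs of chromosome 3 were called higher *in vivo* at both weeks, and *Gbp2* and *Gbp3* were the most abundant GBPs in the heart. *Gbp2* (chr3:142620602-142638008, plus strand, GRCm38), a GBP that is anchored to membranes by a lipid and coats pathogen vacuoles, had FPKM of 27.9 and 23.5 *in vivo* and 7.51 and 7.24 *in vitro* at 1 week. At 2 weeks it had 22.6 and 23.5 *in vivo* and 7.36 and 7.86 *in vitro*. The 4 *in vivo* libraries lay close together and well apart from the 4 *in vitro* libraries, whatever the week. The log2 fold change was 1.78 ± 0.09 (SE, adjusted p = 1.7e-05) at 1 week and 1.59 ± 0.09 (adjusted p = 2.2e-05) at 2 weeks, or 3.48 and 3.03 times as a ratio of mean FPKM. *Gbp3* (chr3:142560026-142573209, plus strand) had FPKM of 15.4 and 9.78 *in vivo* and 1.57 and 1.70 *in vitro* at 1 week. Its levels at 2 weeks were 10.2 and 8.26 *in vivo* and 2.08 and 2.75 *in vitro*. Its replicates in the heart at 1 week were further apart than those of *Gbp2*, yet the lowest *in vivo* library was still well above the highest *in vitro* library. It rose by 2.84 ± 0.23 on the log2 scale (adjusted p = 0.00013) at 1 week, the largest fitted value of the members, and 1.90 ± 0.23 (adjusted p = 0.00063) at 2 weeks.

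*Gbp7* (chr3:142530342-142550149, plus strand), which has been linked to assembly of the NADPH oxidase on phagosomes, was at 7.17 and 4.81 FPKM *in vivo* and 1.71 and 1.85 *in vitro* at 1 week. A week later it stood at 5.19 and 4.23 *in vivo* and 1.24 and 1.19 *in vitro*. It rose by 1.67 ± 0.20 on the log2 scale (adjusted p = 0.00069) at 1 week and 1.86 ± 0.20 (adjusted p = 0.00033) at 2 weeks. *Gbp7* was the only member with a larger fitted difference at 2 weeks than at 1 week. *Gbp5* (chr3:142493978-142522344, plus strand), another lipid-anchored GBP that has been tied to activation of the NLRP3 inflammasome, was at a lower level than its neighbours. It had FPKM of 2.17 and 2.06 *in vivo* and 0.333 and 0.353 *in vitro* at 1 week, and 1.63 and 1.36 *in vivo* and 0.654 and 0.598 *in vitro* at 2 weeks. The 4 groups of *Gbp5* did not overlap at all. Its log2 fold change was 2.32 ± 0.19 (adjusted p = 0.00013) at 1 week and 1.13 ± 0.19 (adjusted p = 0.0027) at 2 weeks. The call at 2 weeks was lost without *in vivo* 2 weeks replicate 1 (1.01, adjusted p = 0.018), without *in vitro* 2 weeks replicate 1 (1.19, 0.013) or without *in vitro* 2 weeks replicate 2 (1.08, 0.019).

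The calls of the 3 GBPs on chromosome 5 were less firm. *Gbp9* (chr5:105077630-105139539, minus strand) had FPKM of 6.65 and 3.40 *in vivo* and 1.57 and 2.12 *in vitro* at 1 week. At 2 weeks it had 3.43 and 2.66 *in vivo* and 2.01 and 1.55 *in vitro*. The gap between the groups was smaller than for any GBP of chromosome 3, and at 1 week the replicates were further apart as a ratio. Its log2 fold change of 1.34 ± 0.33 at 1 week (adjusted p = 0.015) and 0.74 ± 0.33 at 2 weeks (adjusted p = 0.10) did not pass the test. At 1 week it did pass without *in vivo* 1 week replicate 2 (1.81, adjusted p = 0.0053). Over both weeks it passed, at 1.04 ± 0.23 (adjusted p = 0.0071), and that call was kept in only 1 of the 8 fits that each left out a library, without *in vivo* 1 week replicate 2, with log2 fold changes of 0.80 to 1.28 and adjusted p of 0.0018 to 0.028 over the 8.

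*Gbp6* (chr5:105270702-105293698, minus strand) had FPKM of 1.38 and 0.980 *in vivo* and 0.284 and 0.225 *in vitro* at 1 week, and 0.967 and 0.928 *in vivo* and 0.170 and 0.445 *in vitro* at 2 weeks. Its log2 fold change was 1.84 ± 0.39 (adjusted p = 0.0087) at 1 week and 1.45 ± 0.39 (adjusted p = 0.019, not called) at 2 weeks. Of the 75-base stretches of its transcripts, 67.3% also occur in transcripts of other genes, mainly *Gm43302* and *Gbp10*, and 29.0% of its exonic bases are shared with *Gm43302*, which is listed at 0 in all 8 libraries. The values of *Gbp6* are therefore uncertain, since the way shared reads were counted is not given in the sources used here. *Gbp4* (chr5:105115767-105139586, minus strand) was the lowest member, with FPKM of 1.16 and 0.604 *in vivo* and 0.0693 and 0.0893 *in vitro* at 1 week. At 2 weeks it had 0.958 and 0.423 *in vivo* and 0.0289 and 0.0785 *in vitro*. Its *in vitro* values come from 3 to 10 fragments per library and its *in vivo* values from 35 to 102. The fitted log2 fold change was 2.40 ± 0.53 (1 week) and 2.29 ± 0.53 (2 weeks), and both were called with an adjusted p just inside the threshold, 0.00996 and 0.00997. As a ratio of mean FPKM, *Gbp4* was 11.1 (1 week) and 12.85 (2 weeks) times higher, ahead of *Gbp3* at 7.70 and 3.82. The weekly calls of the pair were fragile. Leaving out each library in turn kept the *Gbp4* call in 1 of 8 fits at 1 week (without *in vivo* 2 weeks replicate 2) and in 0 of 8 at 2 weeks, with adjusted p of 0.0099 to 0.072 and 0.012 to 0.065. The *Gbp6* call at 1 week was kept in 2 of 8, those without an *in vitro* 2 weeks library, with adjusted p of 0.0046 to 0.058. Over both weeks *Gbp4* stood at 2.35 ± 0.37 (adjusted p = 0.0015) and *Gbp6* at 1.64 ± 0.28 (adjusted p = 0.0020), and the latter was lost without *in vivo* 1 week replicate 1 (1.39, adjusted p = 0.010).

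The 3 regulatory IRGs of chromosome 11 were also higher *in vivo*. *Igtp* (chr11:58199556-58207591, plus strand), found on the endoplasmic reticulum and lipid droplets, had FPKM of 18.9 and 11.96 *in vivo* and 3.15 and 3.64 *in vitro* at 1 week. Its levels at 2 weeks were 12.2 and 10.03 *in vivo* and 3.43 and 3.13 *in vitro*. The *in vitro* libraries of the weeks overlapped, and so did the *in vivo* ones. *Igtp* differed by a log2 fold change of 2.12 ± 0.21 (adjusted p = 0.00032) at 1 week and 1.72 ± 0.21 (adjusted p = 0.00065) at 2 weeks. *Irgm2* (chr11:58199618-58222782, plus strand), a Golgi IRG known to limit caspase-11 responses, had FPKM of 14.5 and 9.80 *in vivo* and 4.33 and 4.28 *in vitro* at 1 week, and 9.15 and 9.42 *in vivo* and 4.68 and 5.02 *in vitro* at 2 weeks. Its difference was smaller than that of *Igtp*, with a log2 fold change of 1.45 ± 0.17 (adjusted p = 0.00060) at 1 week and 0.92 ± 0.17 (adjusted p = 0.0037) at 2 weeks. The latter passed on p and missed the fold threshold. The gene models of *Igtp* and *Irgm2* overlap on the same strand and share 162 exonic bases, 8.01% of *Igtp* and 4.39% of *Irgm2*, so a small part of their reads could have been split between them. *Irgm1* (chr11:48861968-48871683, minus strand), which acts in autophagy and on lysosomes, had FPKM of 12.3 and 10.2 *in vivo* and 3.64 and 3.18 *in vitro* at 1 week. At 2 weeks it had 5.89 and 5.61 *in vivo* and 2.95 and 3.05 *in vitro*. The *in vivo* level at 2 weeks lay between the *in vivo* level at 1 week and the *in vitro* levels, with no overlap between groups. Its log2 fold change was 1.69 ± 0.12 (adjusted p = 6.1e-05) at 1 week and 0.92 ± 0.12 (adjusted p = 0.00076, under the fold threshold) at 2 weeks. None of the 75-base stretches of *Irgm1* occur in another gene.

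**Figure D2:**
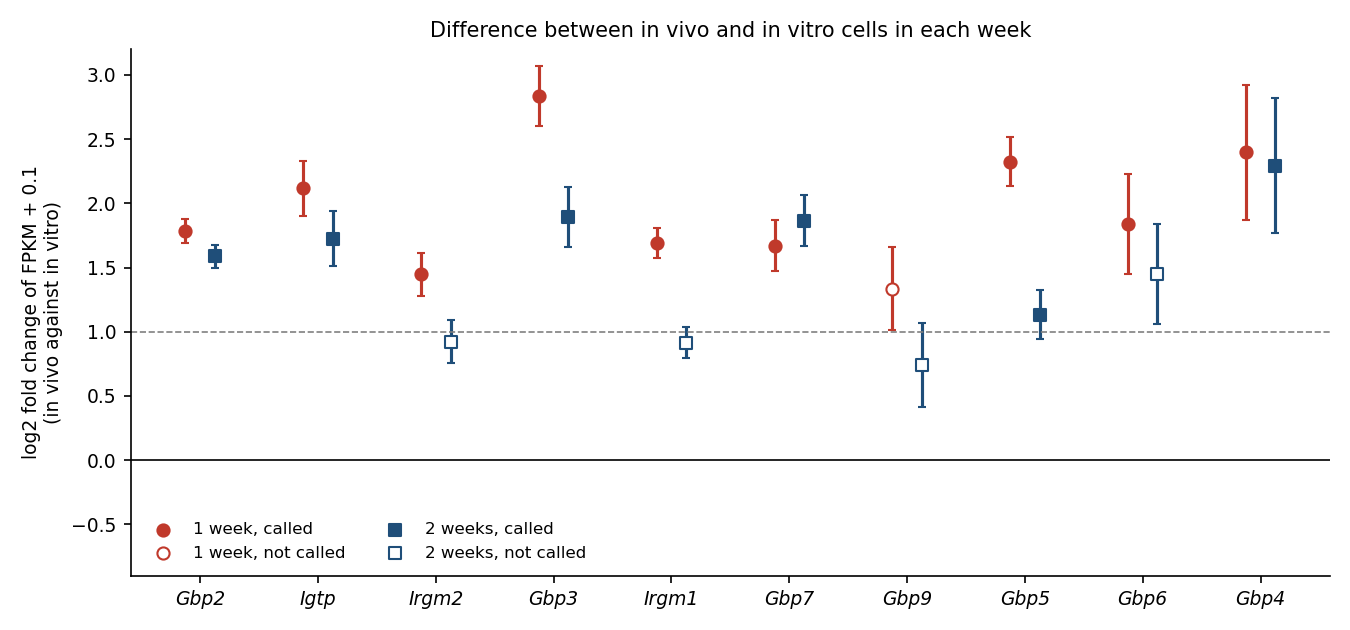
Log2 fold change *in vivo* against *in vitro* of each of the 10 GTPases at 1 week and at 2 weeks on log2(FPKM + 0.1), with bars of 1 SE, filled points where the gene was called and a dashed line at the fold threshold. All 20 values are above 0, from 0.74 for *Gbp9* at 2 weeks to 2.84 for *Gbp3* at 1 week.

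The order of the levels, which FPKM allow because they are per length, was alike in the groups at its ends. *Gbp2* was the highest member in every group, averaging 25.7 FPKM in the heart and 7.38 in culture at 1 week and 23.0 and 7.61 a week later, and it did not overlap the next member in any group. *Gbp5*, *Gbp6* and *Gbp4* were the lowest, in that order, in every group, though *Gbp6* and *Gbp4* overlapped *in vivo* at both weeks. *In vivo* at 1 week *Igtp*, *Gbp3*, *Irgm2* and *Irgm1* followed *Gbp2* with means of 15.4, 12.6, 12.2 and 11.3, and each overlapped its neighbour. *In vitro* at 1 week *Irgm2* came second at 4.31, ahead of *Irgm1* and *Igtp* at 3.41 and 3.40, which overlapped, and *Gbp3* came seventh at 1.64. At 2 weeks *Gbp3* was the fourth *in vivo* at 9.22, overlapping *Irgm2* at 9.29, and the fifth *in vitro* at 2.41. Over the groups, the mean of each of the 10 members was highest *in vivo* at 1 week, then *in vivo* at 2 weeks, and lowest in the *in vitro* groups. The *in vivo* weeks did not overlap for *Gbp5*, *Gbp6*, *Irgm1* and *Irgm2* and overlapped for the other 6.

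No member was called for a change between the weeks by limma, nor by limma voom on the recovered fragments. *In vivo*, all 10 fitted log2 fold changes of 2 weeks against 1 week were negative, with a median of -0.39, and 0 were called in either direction (background 1.23% higher and 0.949% lower). An unadjusted p under 0.05 was reached by 2 of the 10 members and by 31.7% of tested genes. *Irgm1* came closest, at -0.95 ± 0.12 (adjusted p = 0.0041), just under the fold threshold. Without *in vivo* 1 week replicate 1, the *in vivo* median of the members was -0.084, with values from -0.82 to 0.078. *In vitro*, the median was -0.00077 with 5 of 10 positive, 0 were called (background 2.76% and 1.05%), and 2 had an unadjusted p under 0.05, as had 38.2% of tested genes. The largest value was that of *Gbp5*, at 0.71 ± 0.19 (adjusted p = 0.036). The difference between the weeks in the *in vivo* against *in vitro* contrast was tested by its interaction term. It had a median of -0.46 over the members, 0 were called (background 0.573% and 1.15%), and 3 had an unadjusted p under 0.05, as had 26.9% of tested genes. The smallest adjusted p were those of *Irgm1* (-0.78 ± 0.17, adjusted p = 0.035) and *Gbp5* (-1.19 ± 0.27, adjusted p = 0.041). Without *in vivo* 1 week replicate 1, the median of this difference was -0.14. These contrasts share libraries with each other, so they are not separate evidence.

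The replicates in the heart at 1 week differed in 1 direction for all the members. *In vivo* 1 week replicate 1 was above replicate 2 for 10 of 10 members, by 1.06 to 1.96 times, where it was above for 48.0% of all tested genes. Replicate 1 was the higher for 8 of 10 members *in vivo* at 2 weeks (0.960 to 2.26 times) and for 4 of 10 *in vitro* at each week (0.739 to 1.26 and 0.369 to 1.30 times). The summed FPKM of the members were 107.6 and 77.1 *in vivo* at 1 week and 72.1 and 66.4 at 2 weeks, against 24.2 and 24.7, and 24.6 and 25.7, *in vitro*. The *in vitro* sums were thus within a narrow band over both weeks, while the heart samples spread. Without *in vivo* 1 week replicate 1, 7 members were called at 1 week, 5 at 2 weeks and 8 over both weeks, and the median at 1 week was 1.64. The pairwise correlation of the members over the 8 libraries ran from 0.803 to 0.987 with a median of 0.938, over points that share the gap between heart and culture. Among the 12542 genes whose FPKM averaged 1 or more, the 5 whose profile over the 8 libraries was most like the mean of the members were *Ifi44* (r = 0.998), *Phf11d* (0.998), *Ifi203* (0.997), *H2-Q4* (0.996) and *Oas2* (0.996). These correlations describe the same 8 libraries and carry no test. *Ifi44* had FPKM of 5.69 and 2.97 *in vivo* and 0 and 0.0109 *in vitro* at 1 week, so the same heart library was the higher of the pair there too.

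The relatives of the members on the same chromosomes did not all share the pattern. Of the other GBPs, only *Gbp8*, whose gene model overlaps those of *Gbp9* and *Gbp4*, was expressed enough to be tested. Its FPKM were 0.571 and 0.156 *in vivo* and 0.943 and 1.07 *in vitro* at 1 week, and 0.515 and 0.131 *in vivo* and 1.28 and 0.833 *in vitro* at 2 weeks. The 4 *in vitro* libraries were the higher ones, the reverse of its neighbours, with log2 fold changes of -1.41 ± 0.60 (adjusted p = 0.10) and -1.59 ± 0.60 (adjusted p = 0.065) that did not pass the test. *Gbp10* had 4 to 6 fragments in each *in vivo* library and 0 in each *in vitro* library, which allows up to 3 fragments, and 77.8% of its 75-base stretches occur in other genes. *Gbp2b* had at most 5 fragments in any library and *Gbp11* at most 11.

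Among the other IRGs, 12 of 14 were tested, 5 were called higher at 1 week and 8 at 2 weeks, and 0 lower. Their median log2 fold change was 1.27 and 2.02. Of those tested, *Tgtp1*, *Tgtp2*, *Gm12250*, *Gm4951* and *Gm4841* passed the filter for testing through the *in vivo* libraries alone. A higher level *in vivo* was thus built into their selection. The effector IRGs, which load onto pathogen vacuoles and which the 3 member IRGs restrain, led the list. *Iigp1* (Irga6) had FPKM of 18.4 and 11.5 *in vivo* and 0.833 and 0.665 *in vitro* at 1 week, and its log2 fold change was 4.11 ± 0.25 (adjusted p = 3.1e-05) at 1 week and 3.96 ± 0.25 (adjusted p = 2.8e-05) at 2 weeks. *Tgtp2* (Irgb6) rose by 3.91 ± 0.27 and 3.53 ± 0.27 (adjusted p = 5.5e-05 and 6.7e-05), but 81.4% of its 75-base stretches occur in its near copy *Tgtp1*, which stood at 2.28 ± 0.61 (adjusted p = 0.022) and 1.38 ± 0.61 (adjusted p = 0.10). The split between that pair is uncertain. *Gm4951* was called higher at both weeks, at 3.24 and 3.58, though at 1 week not without *in vivo* 1 week replicate 1, and *Gm12250*, annotated as a pseudogene in the table, was called at 3.21 and 2.55. *Ifi47* (Irgd) was called at 1.45 and 1.15, and with the scaling between libraries undone not at 2 weeks. *F830016B08Rik*, *9930111J21Rik1* and *9930111J21Rik2* were called at 2 weeks only, at 2.15, 2.31 and 1.89, and the difference between the weeks did not pass for any of them (adjusted p = 0.094, 0.20 and 0.062). The first lost its call without *in vivo* 2 weeks replicate 1 or either *in vitro* 2 weeks library, and the second without *in vivo* 2 weeks replicate 1 or *in vitro* 2 weeks replicate 2. The *9930111J21Rik1* and *9930111J21Rik2* genes share 76.0% and 52.3% of their 75-base stretches with other genes, mainly each other. *Gm4841*, at 0.33 ± 0.39 and 0.48 ± 0.39, and *Gm5431*, at 0.61 ± 0.46 and -0.29 ± 0.46, did not pass the test. *Irgq*, a family member that is not known to be induced by interferon, was at -0.26 ± 0.13 (adjusted p = 0.16) and -0.46 ± 0.13 (adjusted p = 0.023).

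More distant GTPases were mixed. *Gvin1* was the only very large inducible GTPase of 4 that could be tested, and it passed the filter through the *in vivo* libraries alone. It was at 1.70 ± 0.45 (adjusted p = 0.022) at 1 week and was called at 2.10 ± 0.45 (adjusted p = 0.0078) at 2 weeks. Undoing the scaling removed that call, as did leaving out any 1 of the 8 libraries. Of 9 tested dynamin family GTPases outside the interferon system, such as the dynamins, mitofusins and atlastins, 1 was called higher at each week and 0 lower, and their median log2 fold changes were -0.37 (1 week) and -0.04 (2 weeks). With the scaling undone, 2 were called lower at 2 weeks. The gene called was *Dnm1*, best known for retrieving synaptic vesicles in neurons, at 2.16 ± 0.11 and 2.60 ± 0.11 (adjusted p = 1.5e-05 and 5.4e-06). *Opa1* and *Mfn1*, which fuse mitochondrial membranes, were at -0.48 and -0.39 at 1 week, under the fold threshold.

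**Figure D3:**
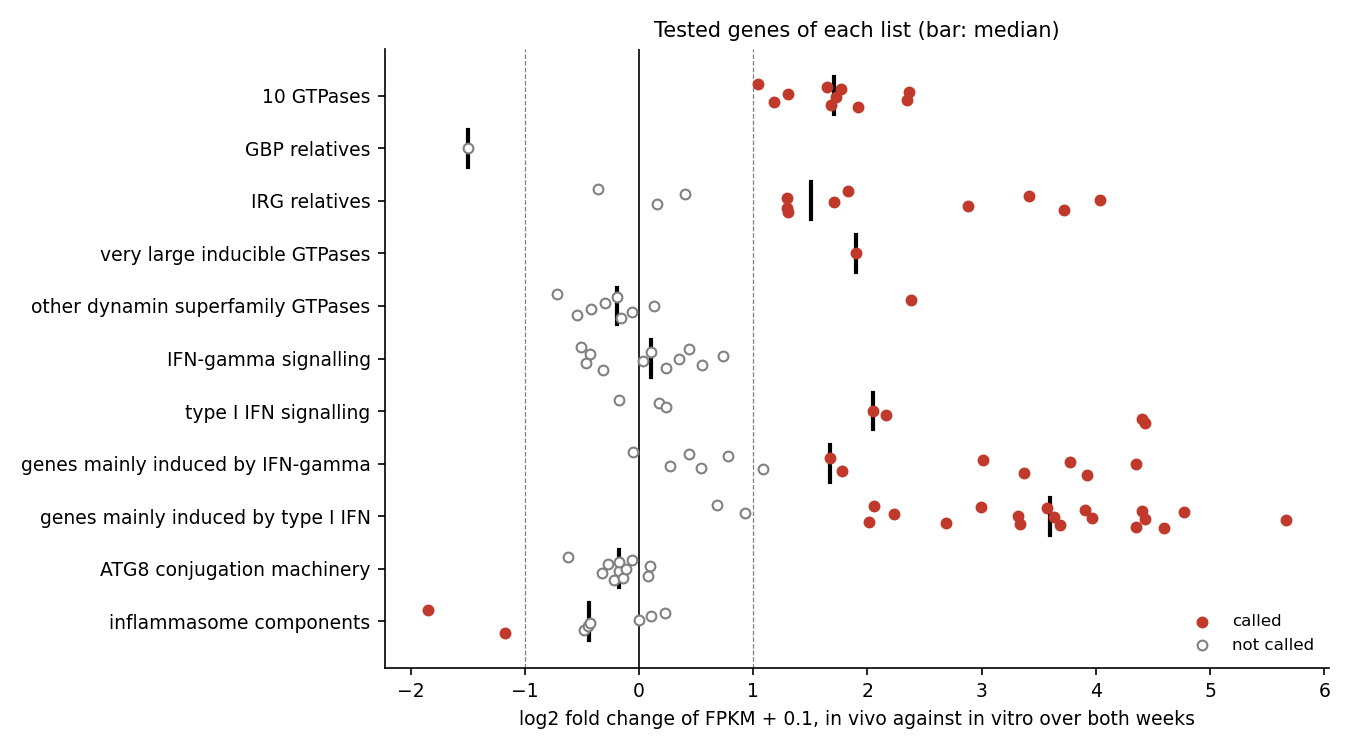
Log2 fold change *in vivo* against *in vitro* over both weeks, on log2(FPKM + 0.1), of each tested gene of the 10 GTPases and of 10 other lists, with filled points for called genes and a black bar at the median. The GTPases have a median of 1.71, the genes mainly induced by type I IFN 3.60, the IFN-γ signalling genes 0.10 and the other dynamin superfamily GTPases -0.20.

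The IFN-γ pathway that classically induces the members was measured from ligand to inhibitors. *Ifng* itself was at 0 to 4 fragments in every library, which is too few to compare. Of 11 tested genes of the pathway, limma called 0 at 1 week (background 7.79% higher and 5.07% lower) and 0 over both weeks (9.56% and 7.30%). At 2 weeks it called 1 higher (9.02%) and 2 lower (8.05%). An unadjusted p under 0.05 was reached by 8 of the 11 at 1 week and by 9 over both weeks, against 50.6% and 62.7% of tested genes. Limma voom on the recovered fragments also called 0 at 1 week and over both weeks. The median log2 fold changes of the 11 were 0.20 (1 week) and -0.09 (2 weeks), and with the scaling undone -0.14 and -0.42, where *Pias1*, an inhibitor of the pathway, was called lower at 1 week. The receptor chains *Ifngr1* and *Ifngr2* were not called. *Ifngr1* had log2 fold changes of 0.39 ± 0.07 (1 week) and 0.31 ± 0.07 (2 weeks), and *Ifngr2* of -0.33 ± 0.10 and -0.52 ± 0.10. The kinase *Jak1* was at 0.16 ± 0.06 and -0.09 ± 0.06 in the same order, and *Jak2* at 0.61 ± 0.08 and 0.27 ± 0.08. None of the 4 reached the fold threshold at either week.

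*Irf1*, the interferon regulatory factor that is needed for full induction of many GBPs, did not follow the members. Its FPKM were 41.1 and 39.6 *in vivo* and 27.1 and 29.8 *in vitro* at 1 week, and 35.03 and 29.0 *in vivo* and 67.7 and 73.0 *in vitro* at 2 weeks. The *in vitro* libraries at 2 weeks were thus the highest of the 8, while the members were low in them. The log2 fold change of *Irf1* was 0.50 ± 0.10 (adjusted p = 0.0066, under the fold threshold) at 1 week, and it was called lower at 2 weeks, at -1.14 ± 0.10 (adjusted p = 0.00013). *Irf8*, a factor of myeloid cells, was at 0.08 ± 0.15 (adjusted p = 0.68) and -1.11 ± 0.15 (adjusted p = 0.00083), and the latter call was lost without *in vivo* 2 weeks replicate 2. *Irf2* was at 0.20 ± 0.12 and 0.01 ± 0.12. Among the inhibitors, *Socs1*, which blocks the Janus kinases, was called higher at 2 weeks (1.11 ± 0.20, adjusted p = 0.0038) but not with the scaling between libraries undone, nor without *in vivo* 2 weeks replicate 1 or either *in vitro* 2 weeks library. *Socs3* was at 0.91 ± 0.07 (adjusted p = 8.0e-05) at 2 weeks, under the fold threshold. *Ptpn2*, a phosphatase that acts on Janus kinases, was at 0.57 ± 0.10 (1 week) and -0.10 ± 0.10 (2 weeks), and *Pias1* at -0.69 ± 0.12 and -0.23 ± 0.12.

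The type I IFN signalling list held larger differences. Of 7 tested genes, 4 were called higher at each week and 0 lower. The receptor chains and *Tyk2* were not among the 4. This list and the IFN-γ signalling list hold different kinds of genes, so their counts do not rank the pathways. *Stat2* and *Irf9*, parts of the complex that binds the ISRE, were called at 2.41 ± 0.19 and 2.24 ± 0.21 at 1 week (adjusted p = 0.00011 and 0.00023) and at 1.91 ± 0.19 and 1.86 ± 0.21 at 2 weeks (adjusted p = 0.00026 and 0.00043). *Irf7*, which amplifies type I IFN production, had FPKM of 37.8 and 18.5 *in vivo* and 0.791 and 0.496 *in vitro* at 1 week, with log2 fold changes of 5.19 ± 0.35 and 3.63 ± 0.35 (adjusted p = 5.2e-05 and 0.00020). *Usp18*, an inhibitor of the type I receptor that interferon itself induces, was called at 4.49 ± 0.35 and 4.36 ± 0.35 (adjusted p = 9.8e-05 and 8.6e-05). It passed the filter for testing through the *in vivo* libraries alone, so a higher level there was built into its selection. The receptor chains were flat by comparison, with *Ifnar1* at 0.30 ± 0.06 and 0.17 ± 0.06 and *Ifnar2* at 0.16 ± 0.08 and -0.51 ± 0.08. The kinase *Tyk2* was at 0.16 ± 0.12 and 0.19 ± 0.12. *Ifnb1* was counted with 4 and 35 fragments *in vivo* at 1 week (FPKM of 0.456 and 3.58) and with at most 2 fragments in any other library, and it was not tested. Its higher library was replicate 2, and that of all 10 members was replicate 1. A link between *Ifnb1* and the members was not tested.

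**Figure D4:**
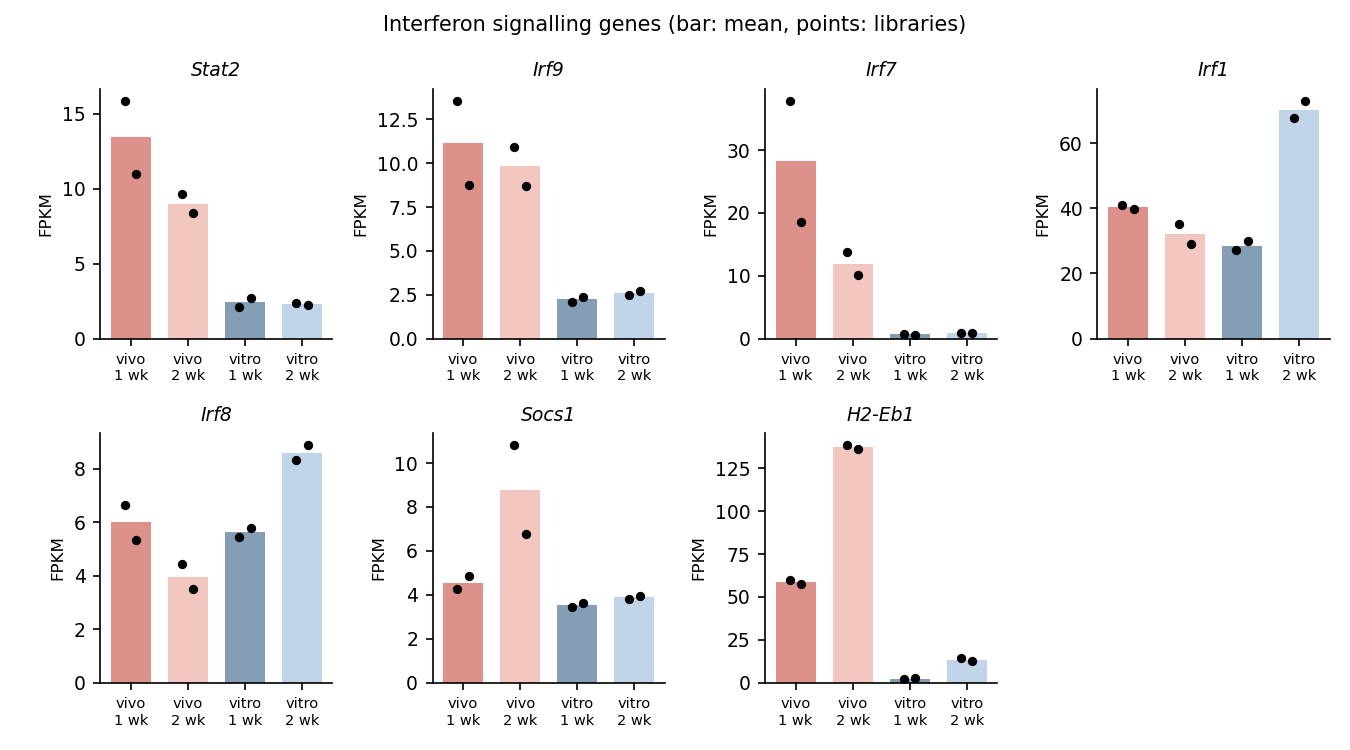
FPKM of 6 interferon signalling genes and of *H2-Eb1* in the 8 libraries, with 1 panel per gene on linear axes from 0, where bars are group means and points are libraries. *Stat2*, *Irf9* and *Irf7* are higher in all *in vivo* libraries, while *Irf1* is highest *in vitro* at 2 weeks, at 67.7 and 73.0.

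Many other interferon-induced genes were called higher *in vivo* as well. On the list of genes mainly induced by type I IFN, 19 of 20 tested were called higher at 1 week, 17 at 2 weeks and 18 over both, with medians of 4.08 and 2.91 at the weeks. Of these, *Mx1*, *Mx2*, *Oas2*, *Oas3*, *Oasl1*, *Rsad2* and *Ifi44* passed the filter for testing through the *in vivo* libraries alone. A higher level *in vivo* was thus built into their selection. *Mx1*, an antiviral dynamin-like GTPase, had FPKM of 4.24 and 2.66 *in vivo* and 0 and 0 *in vitro* at 1 week, at least 66.0 times higher against a floor of 3 fragments per library. *Oas2*, a sensor of double-stranded RNA, was at 3.44 and 2.38 *in vivo* and 0 and 0 *in vitro* at 2 weeks, at least 59.2 times higher on the same floor. On the list of genes mainly induced by IFN-γ, 7 of 13 tested were called higher at 1 week and 5 at 2 weeks, and 0 lower, with medians of 1.65 and 1.31 and values from 0.06 to 4.57 and from -0.16 to 4.34. Its top genes were *Cxcl9*, a chemokine for T cells that was at least 30.4 times higher at 1 week, and the MHC class II genes of antigen presentation. *Cxcl9* passed the filter through the *in vivo* libraries alone, as did *Ciita* and *Batf2* of the same list. *H2-Eb1* was called at 4.51 ± 0.08 and 3.33 ± 0.08, *H2-Aa* at 4.57 ± 0.11 and 2.97 ± 0.11, and *H2-Ab1* at 3.84 ± 0.07 and 2.91 ± 0.07. These 3 MHC class II genes rose from 1 week to 2 weeks *in vivo*, by 1.18 to 1.33, and *in vitro*, by 2.26 to 2.78, all called, where 0 of the GTPases were called in either place.

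The machinery with which GBPs and IRGs work was listed too. The ATG8 conjugation genes, which steer these GTPases to vacuoles, had 0 of 11 called at either week, with medians of -0.07 and -0.16. An unadjusted p under 0.05 was reached by 5 and 6 of the 11, and by 50.6% and 56.4% of tested genes. Of 8 tested inflammasome components, 0 were called higher, 1 lower at 1 week and 3 lower at 2 weeks. The background was 7.79% higher and 5.07% lower at 1 week, and 9.02% and 8.05% at 2 weeks. In lists this short, 0 called higher is close to that share and sets no contrast with the members. *Il18* was at -1.46 ± 0.29 (adjusted p = 0.0068) and -2.23 ± 0.29 (adjusted p = 0.00083), the former lost without *in vivo* 1 week replicate 2 or any 1 of the 4 *in vitro* libraries. *Nlrp3*, the sensor of the inflammasome that *Gbp5* has been tied to, was at -0.80 ± 0.33 (adjusted p = 0.094) and -1.54 ± 0.33 (adjusted p = 0.0076). The last call was lost without either *in vivo* 1 week library, *in vivo* 2 weeks replicate 2 or either *in vitro* 2 weeks library. *Il1b* was called lower at 2 weeks only, at -1.18, a call kept under 9 of 20 alternatives. *Casp1*, at -0.27 and -0.62, and the DNA sensor *Aim2*, at -0.24 and -0.72, were not called at either week.

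Markers of cell types moved with the comparison, and their part in the levels of the members was not tested. Fibroblast markers summed to FPKM of 13722 to 14759 *in vivo* and 3639 to 3775 *in vitro* at 1 week, and to 10904 to 12568 and 2329 to 2346 at 2 weeks, with 7 of 10 called higher at each week. Macrophage markers summed to 2764 to 3171 *in vivo* and 5312 to 6055 *in vitro* at 1 week, and to 2019 to 2434 and 4954 to 6076 at 2 weeks. All 14 were tested, with 3 called higher and 1 lower in the first week's comparison, and 2 higher against 6 lower in the second. *Lyz2*, the marker with the highest FPKM, was called lower at -1.45 ± 0.16 and -1.60 ± 0.16. Without it the other 13 summed to 1433 to 1718 *in vivo* and 1738 to 2041 *in vitro* at 1 week, and to 1044 to 1232 and 2032 to 2364 at 2 weeks. By contrast, *Ccr2* (a receptor of recruited monocytes), *Fcgr1* and *Cx3cr1* were called higher at 1 week. *Fcgr1* is itself induced by interferon, and *Ccr2* passed the filter for testing through the *in vivo* libraries alone.

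Endothelial markers summed to FPKM of 94.7 to 107 *in vivo* and 26.3 to 27.3 *in vitro* at 1 week, and to 86.2 to 93.2 and 53.7 to 63.6 at 2 weeks, with 8 of 10 called higher at 1 week and 5 at 2 weeks. T and NK cell markers, whose cells are the main source of IFN-γ, summed to 2.39 to 2.50 *in vivo* and 0.765 to 1.12 *in vitro* at 1 week, and to 0.708 to 0.838 and 0.955 to 1.73 at 2 weeks. *Cd4* held most of the *in vitro* sums at 2 weeks, with FPKM of 0.628 and 1.53 *in vitro* and 0.198 and 0.135 *in vivo*. The order of the sums at 2 weeks thus rests on this gene. Of the 12 genes, 8 were at 0 in both *in vitro* libraries at 2 weeks and 3 in both *in vivo* libraries. Only *Cd4* of these 12 genes could be tested, at 0.06 ± 0.46 at 1 week and -2.04 ± 0.46 (adjusted p = 0.0094, kept under 7 of 19 alternatives) at 2 weeks, and *Prf1* was listed at 0 in both libraries of 3 groups. Cardiomyocyte markers, the sign of reprogramming, summed to 10.6 to 13.2 *in vivo* and 111 to 123 *in vitro* at 1 week, and to 18.0 to 25.9 and 559 to 634 at 2 weeks. Of 9 tested, 6 were called lower at 1 week and 7 at 2 weeks. The other 2 at 2 weeks were called higher, namely *Pln*, a calcium pump regulator (2.51 at 1 week, also called, and 3.97), and *Myl2*, a myosin light chain of the ventricle (1.21, not called, and 2.39, a call kept under 7 of 17 alternatives).

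**Figure D5:**
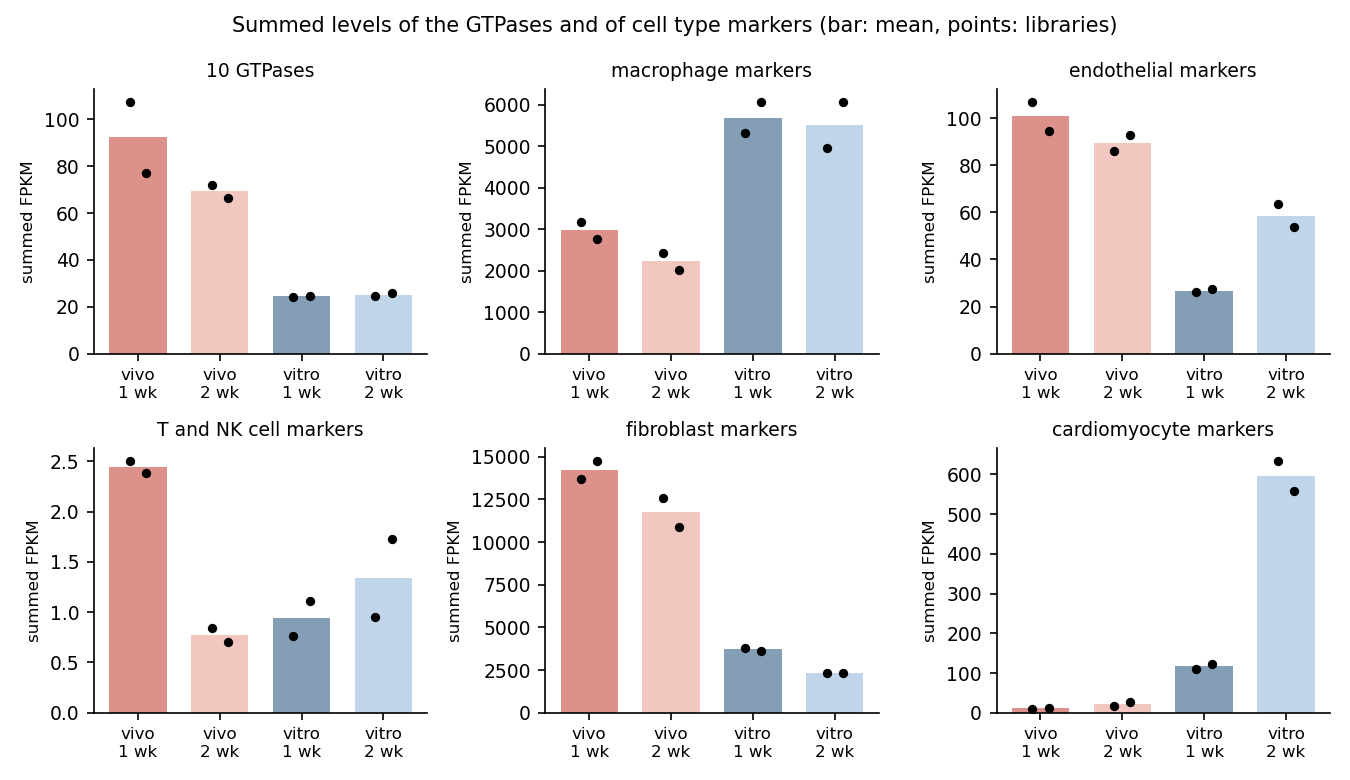
Summed FPKM of the 10 GTPases and of each list of cell type markers in the 8 libraries, with 1 panel per list on linear axes from 0, where bars are group means and points are libraries. The GTPases sum to 66.4 to 107.6 *in vivo* and 24.2 to 25.7 *in vitro*, and the macrophage markers to 2019 to 3171 *in vivo* and 4954 to 6076 *in vitro*.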

How the data were processed

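RNA of sorted eGFP+ cells was made into libraries with a SMARTER mRNA kit, and the sequencing company Novogene did the library preparation, sequencing and mapping. The submitters' processing notes name CASAVA, HISAT2 2.0.5 and the mm10 genome, and the counting tool, annotation and strand setting are not given in the sources used here. The deposited values are FPKM per gene, which the authors normalised to gene length and a scaled library size. No deposited column belonged to a sample outside the series (0 left out). Gene models of the 10 members were the same as in GENCODE vM21 on GRCm38. The authors' own fold changes and p-values were not used.

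The FPKM of 8 libraries were taken as log2(FPKM + 0.1) for the 15708 genes that reached an FPKM of 0.5 in 2 or more libraries, and fitted with limma 3.58.1 (R 4.3.3) as 4 groups with a variance trend. In every list, a gene that reached this FPKM only *in vivo* or only *in vitro* had a difference built into its selection. Genes were called at a Benjamini-Hochberg adjusted p under 0.01 over all tested genes and an absolute log2 fold change over 1, and every adjusted p in the text comes from this fit unless another is named. Fragments per gene were recovered from FPKM and gene length, and values within 0.02 of a whole number counted as whole. Values after ± are standard errors of the limma fit, and floors (3 fragments) cover counting error only. Whether the 2 libraries of a group came from separate mice or cultures is not stated, so p-values measure the spread between these libraries, which may be technical. Alternatives were other pseudocounts, filters, normalizations and thresholds, limma voom on recovered fragments, a replicate block, a fit of only the 4 libraries compared and leaving out each library. The script was tested on simulated data. Python 3.11.15, numpy 2.4.6, pandas 2.3.3 and matplotlib 3.10.9 were used.

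The members and the gene lists were chosen with earlier results of these data known, and 1 gene of the IFN-γ signalling list is not reported here. Named beside the members are the genes of the GBP, IRG and interferon signalling lists, of each other list at most the 4 tested genes with the largest absolute log2 fold change over both weeks, and the 5 genes most correlated with the members. *Il1b* falls outside this rule and was named after its values were seen, as were *Prf1* and *Myl2*. Genes named only for passing the filter through the *in vivo* libraries alone also fall outside it.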

Additional observations from a re-analysis of the deposited data

Results flagged for a closer look

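The *in vivo* against *in vitro* log2 fold change differed between the weeks by its interaction term (limma, adjusted p under 0.01) for 4 named genes that are no GTPases of the family described. *Irf1* differed by -1.64 (adjusted p = 0.0034), from 0.50 at 1 week to -1.14 at 2 weeks, a call kept under 11 of 19 alternatives. The MHC class II gene *H2-Eb1* differed by -1.18 (adjusted p = 0.0037), from 4.51 to 3.33, kept under 7 of 19. *H2-Aa* differed by -1.60 (adjusted p = 0.0037), from 4.57 to 2.97, kept under 10 of 19. The endothelial gene *Pecam1* differed by -1.72 (adjusted p = 0.0068), from 2.96 to 1.24, kept under 8 of 19, with FPKM of 1.63 and 2.13 *in vitro* at 1 week and 6.41 and 5.31 at 2 weeks.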

How the results depend on the processing

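The log2 fold change of each of the 10 members *in vivo* against *in vitro* was above 0 at 1 week, at 2 weeks and over both weeks under every alternative run. Leaving out each library in turn gave 7 to 8 members called at 1 week, 4 to 5 at 2 weeks and 8 to 10 over both weeks. Fitting only the 4 libraries compared gave the fewest at 1 week, 6 with *Gbp4*, *Gbp6* and *Irgm2* lost (*Irgm2* at an adjusted p of 0.0102), and 4 at 2 weeks. A pseudocount of 1 left 6 called over both weeks. With an adjusted p of 0.05 and no minimum fold, 2 members were called for the difference between the weeks (*Gbp5* and *Irgm1*), 1 for 2 weeks against 1 week *in vivo* (*Irgm1*) and 1 *in vitro* (*Gbp5*), and with a minimum log2 fold change of 1 as well, 1 for the difference (*Gbp5*). Over all tested genes, libraries with the same replicate number did not deviate together (correlation of deviations -0.020 and -0.022 between *in vivo* and *in vitro* at the weeks). This cannot show whether they came from the same batch of cells. A replicate block gave 7, 5 and 10 members called at 1 week, 2 weeks and over both. Limma voom on recovered fragments gave 10, 7 and 10. A filter that asked for an FPKM of 1 in 4 or more libraries left 8 members to test. Values that turned sign had no call. The difference between the weeks of *Gbp4* was 0.21 with a pseudocount of 0.01 and 0.29 with limma voom, and ran from -0.61 to 0.40 as each library was left out, that of *Gbp6* from -0.90 to 0.12 and that of *Gbp7* from -0.087 to 0.48. For 2 weeks against 1 week *in vivo*, leaving out each library moved *Gbp4* from -0.85 to 0.17. For the weeks *in vitro*, it moved *Gbp2* from -0.0035 to 0.091, *Gbp6* from -0.39 to 0.63, *Gbp9* from -0.25 to 0.16 and *Igtp* from -0.15 to 0.056, and undoing the scaling put *Gbp2* at -0.0067. The cause was not tested. Depth limits *Gbp4* the most, at 3 to 10 fragments *in vitro*.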
